A study of Arabidopsis thaliana with 30 samples.

Results

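The proteasome genes described here are the 40 genes of Arabidopsis thaliana whose array description contains the word proteasome and whose probe set belongs to a single locus. They were drawn from 21227 genes with such a probe set. The description occurs on 44 probe sets, and 4 of these, each shared by several loci, were left out of the gene counts. The 40 genes comprise 8 genes for subunits of the α rings, 9 for the β rings, 6 for the ATPases of the regulatory particle, 3 for the other subunits of its base, and 10 for its lid. The remaining 4 are not subunits. CSN2 belongs to the COP9 signalosome, a complex that resembles the lid and removes the ubiquitin-like protein NEDD8 from its substrates. The gene listed as EIF2 (AT2G39990) encodes a subunit of a translation initiation factor with a domain of the kind found in RPN8 and RPN11. AT5G53540 is described as like the ATPase RPT6, and AT5G57950 as similar to a human regulatory subunit. The label therefore holds for 36 of the 40 genes, which are called the subunit genes below.

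The proteasome degrades proteins that carry ubiquitin. Its core is a barrel of stacked rings in which the outer α rings gate the entrance and the inner β rings hold the proteolytic sites. The regulatory particle at its ends binds ubiquitin, removes it in the lid, and unfolds the substrate with a ring of ATPases in the base. Many Arabidopsis subunits are encoded by pairs of closely related genes. In this plant the transcription factors NAC53 and NAC78 raise subunit transcripts when proteasome activity is blocked, and nitrogen starvation is known to send proteasomes to the vacuole by autophagy.

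Affymetrix arrays of shoot RNA and root RNA from 10-day-old seedlings gave the transcript levels, with 3 arrays per group and 5 groups in each tissue. The starved overexpressor of AtNIGT1.2 and the starved wild type, Col-0, spent their last 3 days, from day 7, on medium without a nitrogen source. The VP line, whose AtNIGT1.2-VP fusion is induced by estradiol (VP is not explained in the labels), went at 9 days onto medium holding 5 mM ammonium nitrate for 24 h, either with estradiol, given as 10 mM, or without it (mock). The sufficient wild type spent its 3 days on 5 mM ammonium nitrate, so the VP line differs from it in transfer age and time on the plates as well as in genotype. No wild type received estradiol. In what is called induction below, effects of estradiol itself and of the fusion therefore cannot be told apart. The labels give neither the number of lines behind each construct, nor the promoter of the overexpressor, nor the number of seedlings pooled per array. The titles call the replicates biological, and the p-values rest on the spread among them.

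Values are RMA log2 levels, called levels below, and differences are given as log2 fold changes with the standard error of the fit. Shoots and roots were deposited as separate tables, so no difference between tissues was tested. The probes of different genes bind with different strength, so no ranking of genes by level is given. Array medians lay between 6.61 and 6.76 for shoots, and between 6.92 and 7.08 for roots. The AtNIGT1.2 transcript averaged 13.88 ± 0.08 in shoots of the starved overexpressor and 7.26 ± 0.84 in those of the starved wild type (SD, n = 3 each). It averaged 12.50 ± 0.13 in shoots of the estradiol-treated VP line and 9.56 ± 0.08 in those of the mock-treated line (SD, n = 3 each), so both constructs stand as labelled. The shoot markers RCA, GAPA, LHCB3 and PSAD2 lay at percentiles 99.5 to 100.0 of all probe sets in shoots, and the root markers at 69.5 to 96.7 in roots. None of the 4 shoot markers was near the bottom of the root range: they lay at percentiles 48.5 to 73.0 there. In bulk tissue, fewer cells of a type and less RNA per cell cannot be told apart.

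All 40 genes passed the filter on low values in both tissues. Their mean signal lay at percentiles 56.7 to 97.7 of all probe sets in shoots (median 91.0) and at 56.5 to 98.7 in roots (median 93.8), which places every one of them far from the dim end of the arrays. The genes moved little compared with the rest of the array. The difference between the highest and the lowest of the 5 group means had a median of 0.35 in shoots and of 0.35 in roots, against medians of 0.69 and 0.45 over the 15922 probe sets tested. In the starved against the sufficient wild type in shoots, RPT2B alone, 2.5% of the 40 genes, passed a change of 0.5 on the log2 scale, against 27.9% of all probe sets tested. In the other 7 comparisons none did, where between 3.03% and 23.1% of all probe sets tested passed that size.

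**Figure D1:**
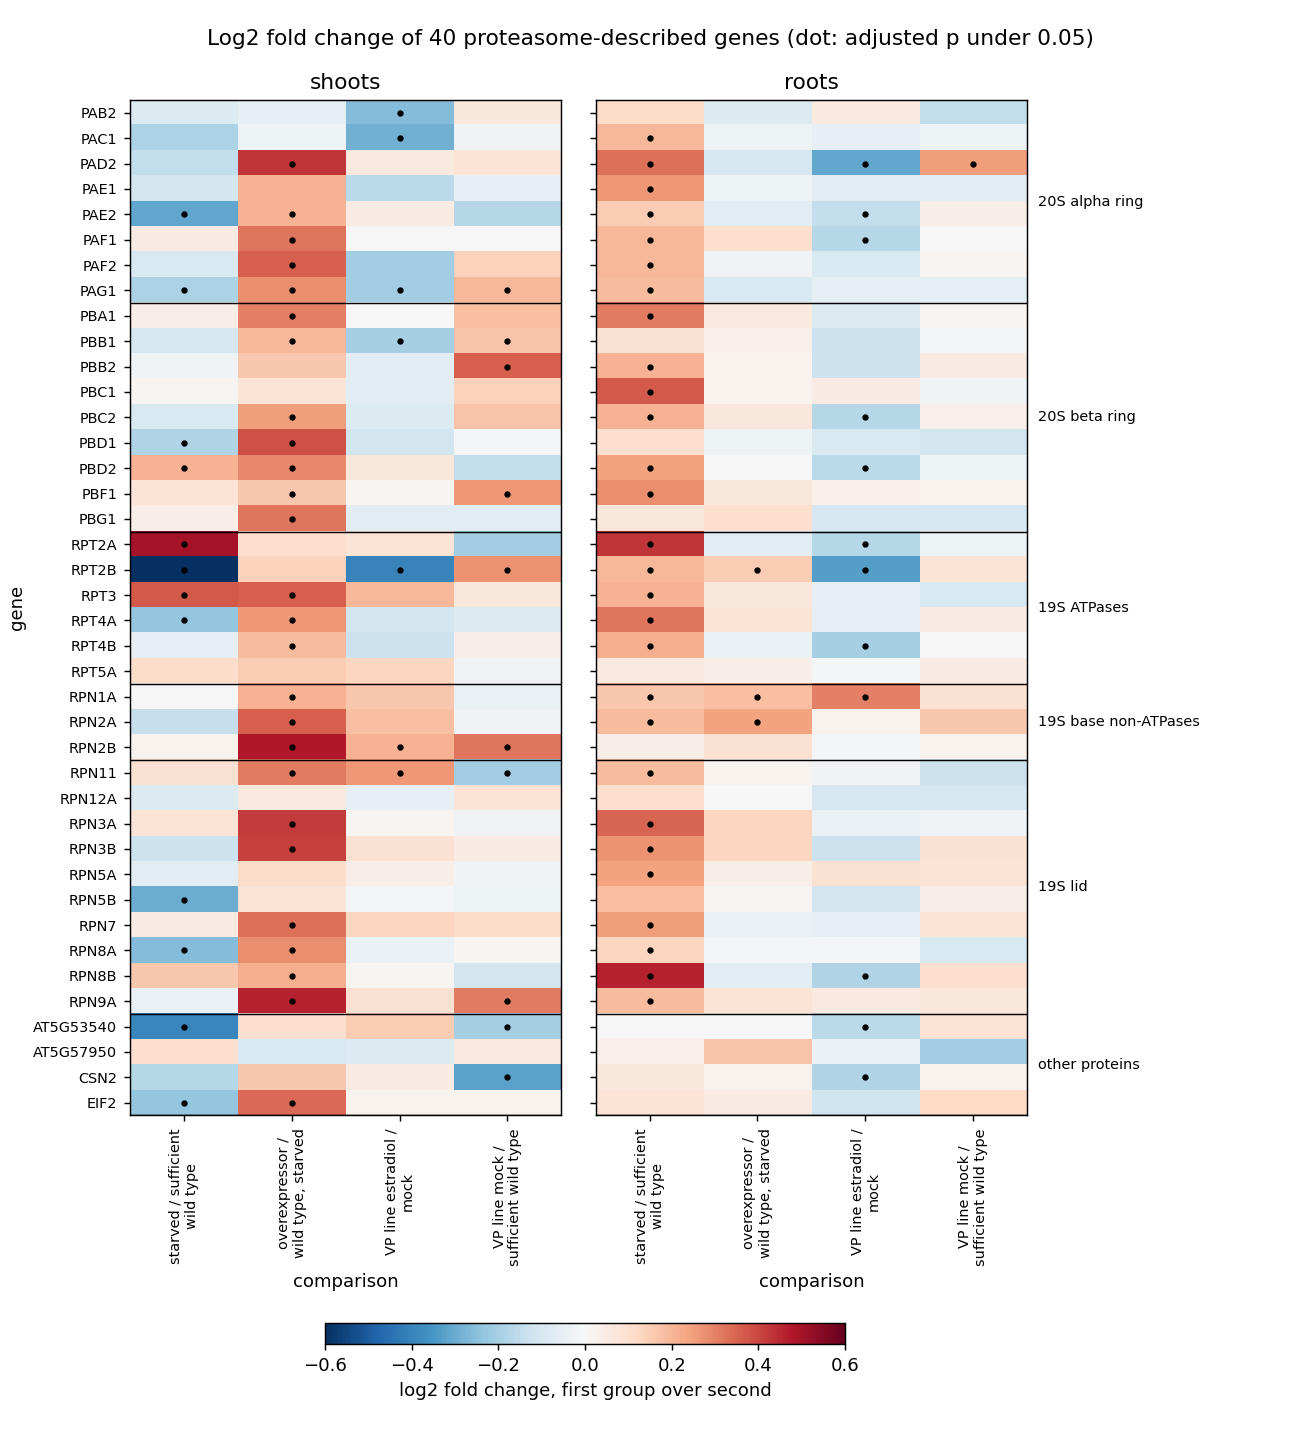
Log2 fold changes of the 40 genes (rows, grouped by their place in the proteasome) in 4 comparisons (columns) in shoots and roots, on a colour scale from -0.6 to 0.6; each column names its first group over its second, and a dot marks a Benjamini-Hochberg adjusted p under 0.05 in limma. The overexpressor column in shoots holds 26 dots, all red, and the starvation column in roots holds 28, all red and all on subunit genes, while the starvation column in shoots is mixed.

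Nitrogen starvation of the wild type raised subunit transcripts broadly in roots. In the starved against the sufficient wild type, 28 of the 40 genes were higher and none was lower at an adjusted p under 0.05 (limma, Benjamini-Hochberg over all probe sets tested). Over all probe sets tested, 33.1% were higher and 21.8% lower. All 28 were subunit genes, and the 4 genes outside the proteasome had changes between -0.00 and 0.08, none past the threshold. At an unadjusted p under 0.05 the counts were 29 higher and 0 lower, beside 36.0% and 23.7% of all probe sets tested. The median change of the 40 genes was 0.20, against 0.06 over all probe sets tested. The rise covered every subcomplex, with 7 of 8 α ring genes, 6 of 9 β ring genes, 5 of 6 ATPase genes, 2 of 3 other base genes and 8 of 10 lid genes. With each array centred on its median, 17 genes were higher and none lower, and over all probe sets tested 3857 were then higher and 4725 lower, against 5265 and 3466 as deposited.

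RPN8B, which encodes the lid partner of the deubiquitinase RPN11, changed most in roots. Its level was 9.49, 9.34 and 9.47 in the starved wild type, against 9.13, 8.94 and 8.85 in the sufficient wild type. All 3 starved arrays lay above the sufficient ones, and the difference was 0.46 ± 0.06 (adjusted p = 4.31e-06, limma). RPT2A encodes an ATPase known for its need in root meristem maintenance. It stood at 11.25, 11.29 and 11.23 in starved roots, against 10.85, 10.75 and 10.88 in sufficient roots. The 3 starved arrays lay well above the others, at a difference of 0.43 ± 0.05 (adjusted p = 4.01e-07, limma). PBC1, a β ring gene, had 11.05, 10.97 and 11.12 in starved roots, against 10.74, 10.63 and 10.69 in sufficient roots. Its groups did not overlap either, and the difference was 0.37 ± 0.06 (adjusted p = 1.08e-05, limma). RPN3A, a lid scaffold gene (0.35 ± 0.07), PAD2 of the α ring (0.33 ± 0.06), the ATPase gene RPT4A (0.32 ± 0.07) and PBA1 (0.31 ± 0.05), which carries the caspase-like site of the core, followed. Of the 28 genes, 25 had starved arrays that all lay above the sufficient ones, and the exceptions were PAE2, RPN1A and RPN2A. Called or not, 28 of the 40 genes had starved arrays that all lay above the sufficient ones, beside 33.9% of all probe sets tested. The ATPase gene RPT5A stood at 11.26, 11.25 and 11.11 in starved roots, against 11.14, 11.14 and 11.15 in sufficient roots. Its groups overlapped, its change was 0.06 ± 0.04, and its 5 group means spanned 0.11, the least among the 40 genes in roots.

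Subunit genes that the description rule missed gave similar counts. Of 9 such genes, 6 were higher and 0 lower in starved roots. They included RPT5B, the paralog of RPT5A, with levels of 9.33, 9.19 and 9.25 in starved roots, against 8.77, 8.54 and 8.55 in sufficient roots, a change of 0.63 ± 0.07. RPN6, a lid gene, rose by 0.36 ± 0.04. RPN10, the ubiquitin receptor of the regulatory particle, which also delivers inactive proteasomes to autophagy in Arabidopsis, rose by 0.29 ± 0.05. Of the 4 probe sets shared by several loci, 2 were higher, at 0.29 ± 0.07 and 0.25 ± 0.05. The COP9 signalosome, taken without CSN2, had 6 of 9 genes higher and 0 lower, beside 33.1% and 21.8% of all probe sets tested.

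Organ markers moved in the same root comparison. All 4 shoot markers were lower, with array means of 7.66 to 7.75 in starved roots and 8.98 to 9.10 in sufficient roots. Of the 6 root markers, 4 were higher and 0 lower, with array means of 9.47 to 9.53 in starved roots and 8.79 to 8.99 in sufficient roots. Their part in the rise of the subunit genes was not tested.

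In shoots the same treatment gave a mixed picture, with opposite calls in 2 of the 11 pairs of paralogs. Of the 40 genes, 3 were higher and 9 lower in the starved wild type, against backgrounds of 27.8% higher and 26.3% lower over all probe sets tested (limma, adjusted p under 0.05). As shares of the 40 genes, both counts lie below those backgrounds in the values as deposited. The median change was -0.07, against 0.00 over all probe sets. RPT2A, RPT3 and PBD2 were higher. The α ring genes PAE2 and PAG1, the β ring gene PBD1, the ATPase genes RPT2B and RPT4A, the lid genes RPN5B and RPN8A, and AT5G53540 and EIF2 were lower. With each array centred on its median the counts were 2 higher and 13 lower, beside 23.6% and 30.7% of all probe sets tested, so the lower count was then no longer below its background. The lower count fell to 4 without starved wild type replicate 2, without starved wild type replicate 3 or without sufficient wild type replicate 2. Shoot markers were lower in 2 of 4 cases, with array means of 13.09 to 13.29 in starved and 13.43 to 13.46 in sufficient shoots, and their part was not tested. The 9 subunit genes that the rule missed did not share the lower calls: 3 were higher and 0 lower, with a median change of 0.07. Among the probe sets shared by several loci, the largest change was 0.31 ± 0.08, higher, and the others did not pass the threshold.

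RPT2A and RPT2B encode near-identical versions of the same ATPase subunit, and they moved in opposite directions in starved shoots. RPT2A stood at 10.70, 10.64 and 10.48 in the starved wild type, against 10.02, 10.08 and 10.22 in the sufficient wild type. All 3 starved arrays were higher, by 0.50 ± 0.09 (adjusted p = 0.000192, limma). RPT2B stood at 8.12, 8.14 and 8.18 in the starved wild type, against 8.51, 8.90 and 8.85 in the sufficient wild type. All 3 starved arrays were lower, and RPT2B fell by 0.60 on the log2 scale, with a standard error of 0.09 (adjusted p = 3.13e-05, limma). The changes of the pair differed by 1.10, the largest difference among the 11 pairs of paralogs in any comparison. Each probe set is assigned to a single locus in the deposited tables, and binding of one paralog's RNA to the other's probes was not tested.

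The β ring genes PBD1 and PBD2 also parted, by less. PBD2 stood at 10.10, 9.97 and 9.91 in starved shoots, against 9.72, 9.82 and 9.81 in sufficient shoots. It was higher in all 3 arrays, by 0.21 ± 0.08 (adjusted p = 0.0324, limma). PBD1 stood at 10.08, 9.87 and 9.94 in starved shoots, against 10.05, 10.22 and 10.17 in sufficient shoots. Its groups overlapped and its change was -0.18 ± 0.07 (adjusted p = 0.0415, limma). Neither call was firm. PBD1 missed the threshold in 8 alternative settings and PBD2 in 7, with adjusted p up to 0.172 and 0.138. These were the only pairs with opposite calls in the 8 comparisons. In starved roots both members of 7 pairs were higher, RPT2A and RPT2B among them.

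AT5G53540, described as like RPT6, had levels of 8.65, 8.50 and 8.59 in starved shoots, against 8.89, 9.04 and 8.98 in sufficient shoots. Every starved array was below every sufficient one, and the change was -0.39 ± 0.07 (adjusted p = 0.000102, limma). RPT3 stood at 11.44, 11.29 and 11.29 in starved shoots, against 10.99, 11.03 and 10.89 in sufficient shoots. It was higher in all 3 arrays, by 0.37 ± 0.08 (adjusted p = 0.00137, limma). Set side by side, 3 genes were higher on starvation in both tissues, where 12.3% of the 14550 probe sets tested in both tissues were: PBD2, RPT2A and RPT3, which are 3 of the 3 higher in shoots and 3 of the 28 higher in roots. Another 5, PAE2, PAG1, RPT2B, RPT4A and RPN8A, were lower in shoots and higher in roots, 5 of the 9 lower in shoots and 5 of the 28 higher in roots, where 6.49% of all probe sets tested in both were. In 8 genes all starved arrays lay below the sufficient ones in shoots and above them in roots, as did those of 7.90% of all probe sets tested in both tissues. RPT2B, RPT4A, PAG1 and RPN8A passed the threshold in both tissues, PAD2, RPT4B and RPN5B in one of them, and PAB2 in neither. The difference between tissues was not tested.

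The RPT2 pair also spread most over all 5 groups in shoots. RPT2A averaged 10.70 ± 0.18 in the starved overexpressor and 10.60 ± 0.11 in the starved wild type, which overlapped (SD, n = 3 each). It averaged 9.97 ± 0.11 in the estradiol-treated VP line, 9.89 ± 0.02 in the mock-treated line and 10.11 ± 0.10 in the sufficient wild type (SD, n = 3 each), so the starved groups stood apart from those on ammonium nitrate. RPT2B had the starved groups at the bottom, with 8.29 ± 0.06 in the overexpressor and 8.15 ± 0.03 in the wild type (SD, n = 3 each). Its level was 8.62 ± 0.10 in the estradiol-treated line, 9.02 ± 0.04 in the mock-treated line and 8.75 ± 0.21 in the sufficient wild type (SD, n = 3 each). At the other end, the group means of the lid scaffold gene RPN5A spanned 0.11 in shoots, between 10.03 and 10.14, and those of the β ring gene PBC1, one of the leading genes in roots, spanned 0.14.

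**Figure D2:**
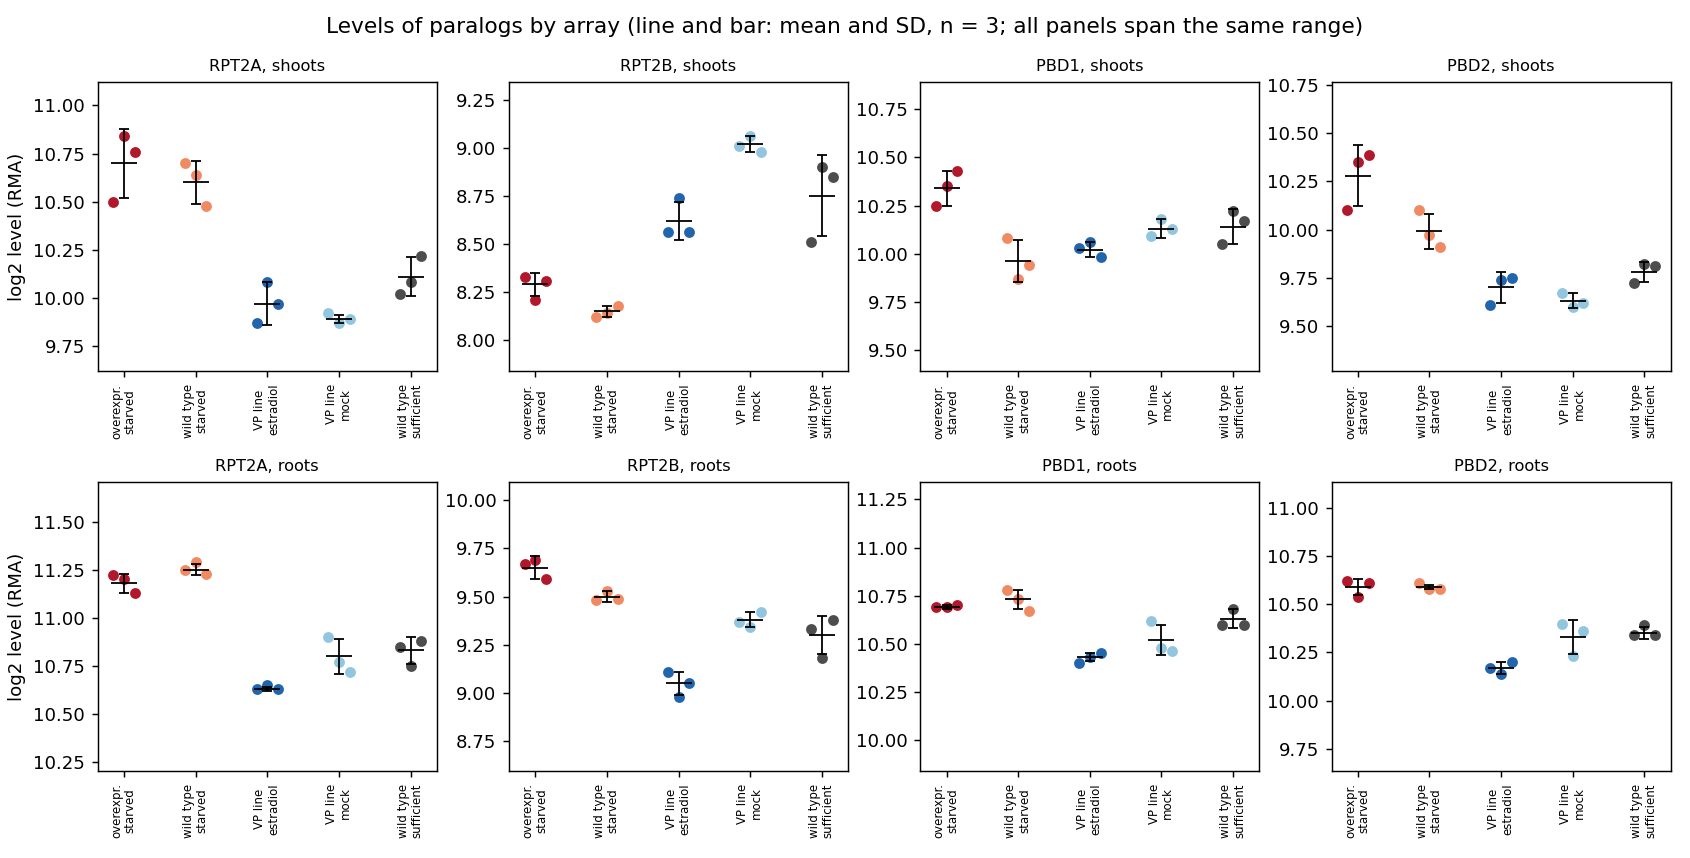
Log2 levels (RMA) of RPT2A, RPT2B, PBD1 and PBD2 by array in 5 groups of shoots and roots; points are arrays, lines and bars are the mean and SD (n = 3), and all panels span the same number of log2 units. In shoots the starved wild type lies above the sufficient wild type for RPT2A and below it for RPT2B, while in roots it lies above it for both.

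Among the regulators and partners of the proteasome, NAC53 and PA200 changed most in starved shoots. Their changes, like those of UBQ11 and UBQ3, were larger than that of any of the 40 genes. NAC53 stood at 9.52, 9.47 and 9.41 in starved shoots, against 8.34, 8.31 and 8.11 in sufficient shoots. All 3 starved arrays were higher, by 1.21 ± 0.09 (adjusted p = 2.31e-08, limma). NAC78 had 9.66, 9.72 and 9.60 in starved shoots, against 9.28, 9.20 and 9.19 in sufficient shoots, without overlap and with a change of 0.43 ± 0.08. The proteasome activator PA200, which caps the core in place of the regulatory particle, had 8.78, 8.52 and 8.34 in starved shoots, against 7.90, 7.49 and 7.02 in sufficient shoots. It too was higher without overlap, by 1.08 ± 0.16. Genes for ubiquitin and its activating enzymes were higher in 6 of 7 cases and lower in 0, as with UBQ11 (0.69 ± 0.11) and UBQ3 (0.68 ± 0.08). The proteasome regulator PTRE1 (0.53 ± 0.09) and the proteasome-associated ECM29 (0.50 ± 0.11) were also higher. The ubiquitin shuttle genes RAD23B and RAD23C were lower, with changes of -0.41 ± 0.08 and -0.34 ± 0.07. The COP9 signalosome genes had 0 of 9 higher and 3 lower. In this comparison 27.8% of all probe sets tested were higher and 26.3% lower, so the count of COP9 signalosome genes that were lower is near the background. RPN10 had a change of 0.13 ± 0.08, not past the threshold.

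The same regulators behaved otherwise in roots, in values set side by side and not tested between tissues. NAC53 had 10.60, 10.57 and 10.67 in starved roots, against 10.73, 10.70 and 10.90 in sufficient roots. Its arrays were all lower on starvation, with a change of -0.16 ± 0.06 (adjusted p = 0.0342, limma). NAC78 changed by 0.14 ± 0.06 and missed the threshold, at an adjusted p of 0.0507. PA200 rose in starved roots too, by 0.35 ± 0.07. Of the ubiquitin and activating enzyme genes 5 of 7 were higher, and UBQ3 and UBQ10 were lower, at -0.33 ± 0.07 and -0.28 ± 0.07. Among all probe sets tested in roots, 33.1% were higher and 21.8% lower on starvation.

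**Figure D3:**
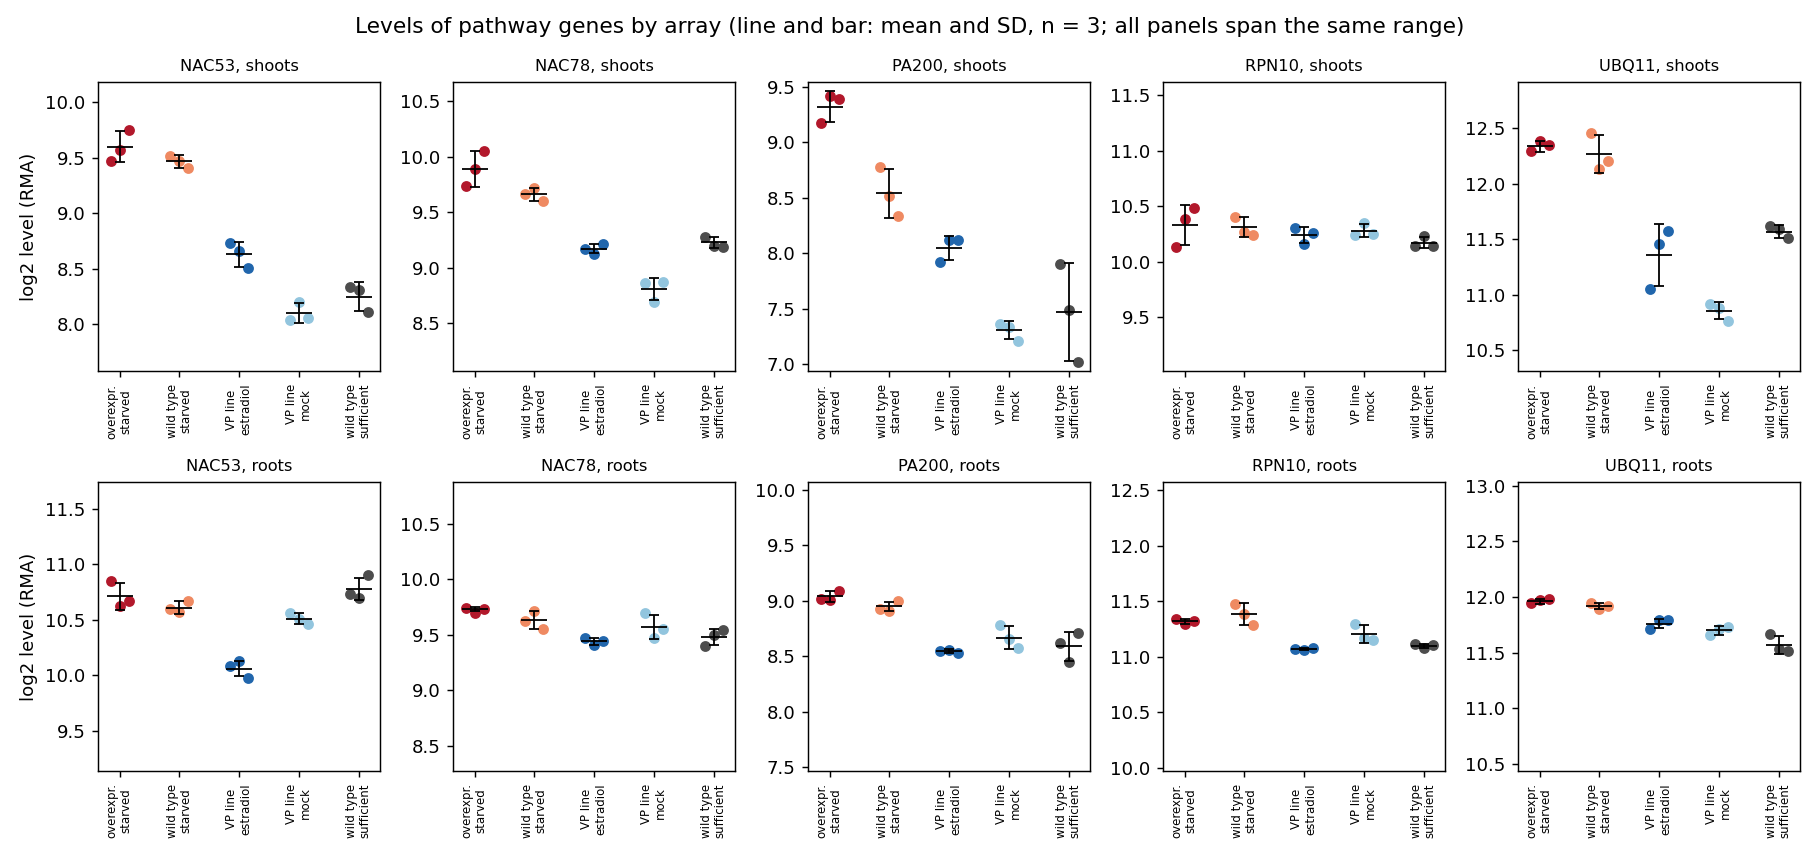
Log2 levels (RMA) by array of NAC53, NAC78, PA200, RPN10 and UBQ11 in 5 groups of shoots and roots; points are arrays, lines and bars are the mean and SD (n = 3), and all panels span the same number of log2 units. NAC53 in shoots lies between 9.41 and 9.52 in the starved wild type, above the 8.11 to 8.34 of the sufficient wild type, while in roots the starved wild type lies slightly below.

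Subunit transcripts were higher in starved shoots of the AtNIGT1.2 overexpressor than in those of the wild type. The number of lines is not given, so effects of the line and of the transgene cannot be told apart. In the overexpressor against the wild type, both starved, 26 of the 40 genes were higher and none was lower in shoots (limma, adjusted p under 0.05). Over all probe sets tested, 30.6% were higher and 20.7% lower. At an unadjusted p under 0.05 the counts were 28 higher and 0 lower, beside 33.8% and 22.7% of all probe sets tested. The median change was 0.24, against 0.06 over all probe sets tested. Of the subunit genes 25 were higher: 5 of 8 in the α ring, 7 of 9 in the β ring, 3 of 6 ATPases, 3 of 3 other base genes and 7 of 10 in the lid. EIF2 was the only gene higher among the 4 outside the proteasome, at 0.34 ± 0.07. With each array centred on its median, 21 of the 40 genes were higher and 0 lower, beside 26.6% and 22.3% of all probe sets tested. This comparison uses the same 3 arrays of starved wild type as the starvation comparison.

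RPN2B encodes a large scaffold of the base that docks the lid and ubiquitin receptors, and it changed most. It stood at 8.51, 8.83 and 8.65 in the starved overexpressor, against 8.23, 8.17 and 8.15 in the starved wild type. The overexpressor was higher in all 3 arrays, and the difference was 0.48 ± 0.08 (adjusted p = 0.000143, limma). RPN9A, a lid gene, stood at 9.19, 9.12 and 9.13 in the overexpressor, against 8.70, 8.77 and 8.61 in the wild type. Its 3 overexpressor arrays were close together and all higher, by 0.46 ± 0.07 (adjusted p = 5.31e-05, limma). PAD2 had 9.90, 10.08 and 10.26 in the overexpressor, against 9.64, 9.59 and 9.72 in the wild type, a difference of 0.43 ± 0.08 without overlap (adjusted p = 0.000362, limma). The lid pair RPN3A and RPN3B rose by 0.42 ± 0.08 and 0.41 ± 0.09, and PBD1 by 0.38 ± 0.07. Both members were higher in 6 of the 11 pairs of paralogs. RPT2A and RPT2B did not pass the threshold here, at 0.10 ± 0.09 and 0.14 ± 0.09.

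Array means of the subunit genes differed between replicates of the overexpressor. Over the 36 subunit genes the mean level was 9.70, 9.83 and 9.87 in shoots of the starved overexpressor, against 9.61, 9.54 and 9.51 in those of the starved wild type. All 3 overexpressor arrays lay above the wild type, replicate 1 by the least. The other shoot groups lay between 9.55 and 9.68. The 40 genes had their highest group mean in the starved overexpressor in 24 cases and their lowest in the starved wild type in 19. The order of the group means was not counted over all probe sets tested, so whether it is particular to these genes is not known. With 1 array left out at a time, the higher count ran from 18 to 27 and the lower count was 0. All 4 shoot markers were lower in this comparison, with array means of 12.26 to 12.52 in the overexpressor and 13.09 to 13.29 in the wild type. Of the 5 root markers tested, 1 was higher. The part of these markers in the rise was not tested.

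Partners of the proteasome gave mixed results in the overexpressor's shoots, where some were higher and others did not pass the threshold or were lower. PA200 was higher at 9.17, 9.42 and 9.39, against 8.78, 8.52 and 8.34 in the starved wild type, a change of 0.78 ± 0.16. ECM29 rose by 0.49 ± 0.11, and the ubiquitin-activating enzyme genes UBA1 and UBA2 by 0.43 ± 0.07 and 0.35 ± 0.08. These were the only 2 of the 7 ubiquitin and activating enzyme genes that were higher, and UBQ3 was lower, at -0.31 ± 0.08. PTRE1 (-0.16 ± 0.09) and UMP1A (0.02 ± 0.09) did not pass the threshold. The COP9 signalosome genes were higher in 5 of 9 cases and lower in 0. NAC78 rose by 0.23 ± 0.08, while NAC53 had a change of 0.13 ± 0.09, not past the threshold. UCH1, a deubiquitinase of the proteasome, was lower, at -0.55 ± 0.09. Of the 9 subunit genes that the rule missed 2 were higher, RPN6 and PAD1, and 0 were lower, a smaller share higher than the 30.6% of all probe sets tested.

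In roots the overexpressor differed little from the wild type in these genes. Of the 40, 3 were higher and none lower (limma, adjusted p under 0.05), where 21.4% of all probe sets tested were higher and 16.7% lower. At an unadjusted p under 0.05 the counts were 6 higher and 0 lower, beside 26.5% and 19.7% of all probe sets tested. The median change was 0.02, against 0.03 over all probe sets. RPN2A stood at 9.56, 9.78 and 9.65 in the overexpressor, against 9.43, 9.54 and 9.32 in the wild type, both starved. All 3 overexpressor arrays were higher, at a difference of 0.24 ± 0.08 (adjusted p = 0.0176, limma). RPN1A, a base scaffold needed for Arabidopsis embryo development, had 10.12, 10.04 and 10.07 in the overexpressor, against 9.96, 9.95 and 9.77 in the wild type. The difference was 0.18 ± 0.06 (adjusted p = 0.0201, limma), also without overlap. RPT2B rose by 0.15 ± 0.06 (adjusted p = 0.0475, limma). RPN1A and RPN2A were higher in the overexpressor in both tissues, 2 of the 26 higher in shoots and 2 of the 3 in roots, where 12.0% of all probe sets tested in both tissues were.

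These 3 root calls rest on few arrays. Without starved wild type replicate 3 none of the 40 passed, and without overexpressor replicate 1 or without overexpressor replicate 2, 1 did. The mean of the subunit genes was 10.61, 10.58 and 10.58 in the overexpressor's roots, against 10.58, 10.57 and 10.53 in the starved wild type's. Sufficient roots had 10.38, 10.31 and 10.34, below all 6 of these values. In the same comparison all 4 shoot markers were lower, with array means of 5.89 to 6.02 in the overexpressor and 7.66 to 7.75 in the wild type. DSS1V and DSS1I, genes for the small lid subunit, were lower in the overexpressor's roots, at -0.34 ± 0.06 and -0.31 ± 0.07.

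**Figure D4:**
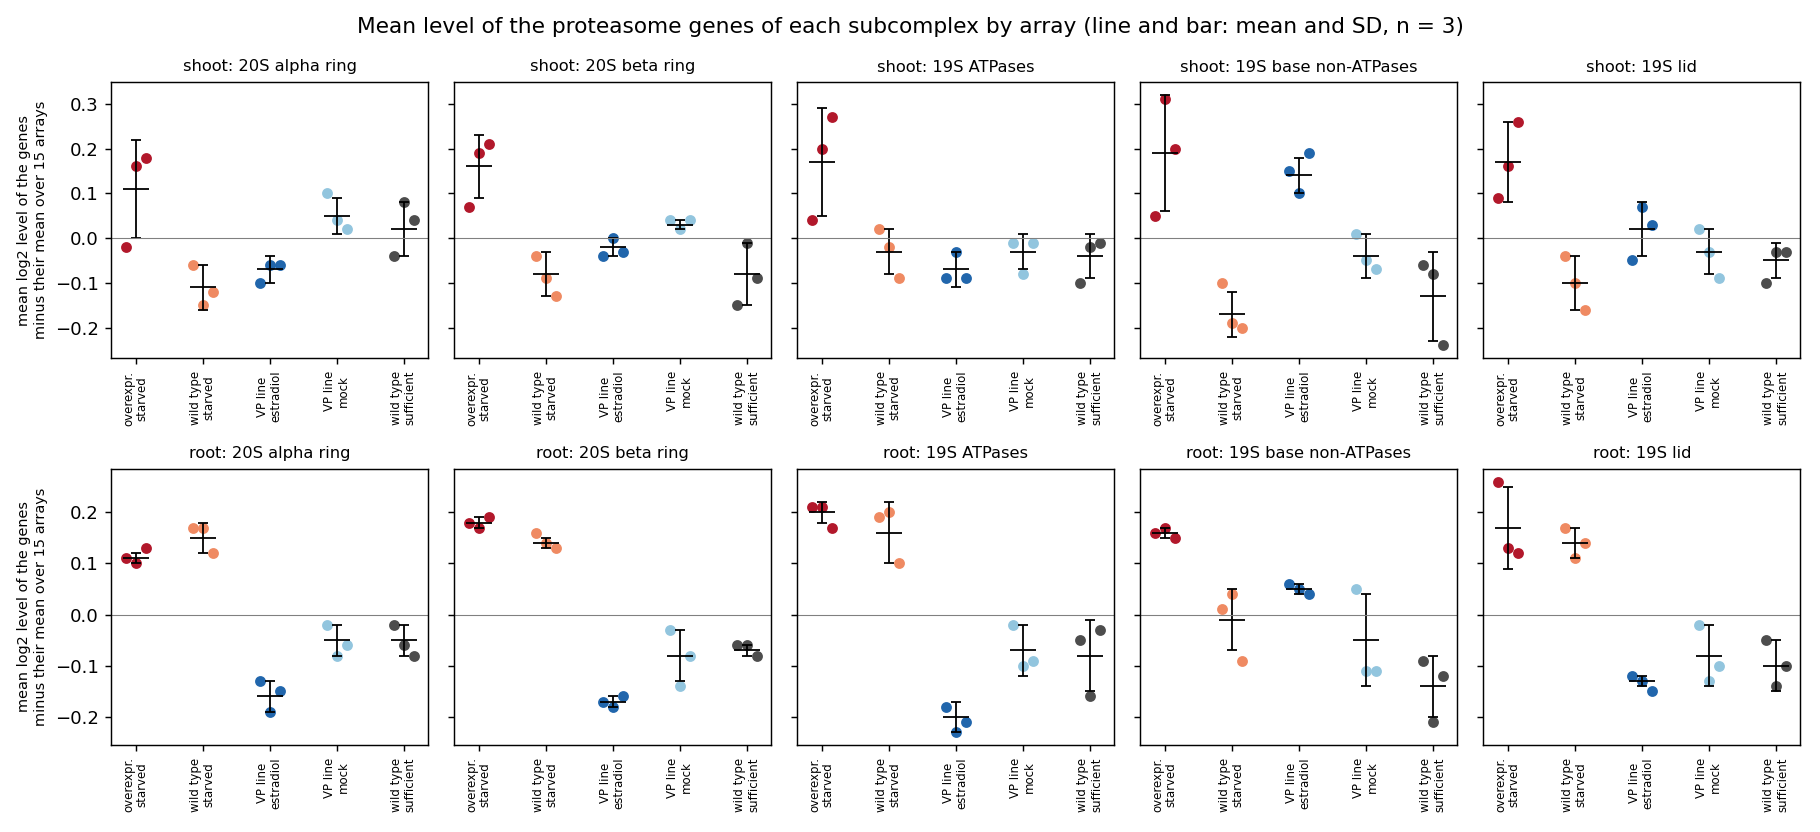
Mean log2 level of the genes of each subcomplex on each array, minus the mean of those genes over the 15 arrays of the tissue, in 5 groups; points are arrays, lines and bars are the mean and SD (n = 3). In shoots the starved overexpressor is the highest group for every subcomplex, and in roots both starved groups lie above the sufficient ones except for the base genes, where the starved wild type reaches down to -0.09.

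Few proteasome genes differed in shoots on induction of AtNIGT1.2-VP by estradiol. In the estradiol-treated against the mock-treated VP line, 2 of the 40 genes were higher and 5 lower (limma, adjusted p under 0.05), where 23.8% of all probe sets tested were higher and 25.5% lower. The median change was 0.00, against -0.03 over all probe sets. RPT2B had the largest change, with 8.56, 8.74 and 8.56 in the estradiol-treated line, against 9.01, 9.06 and 8.98 in the mock-treated line. The groups did not overlap, at -0.40 ± 0.09 (adjusted p = 0.0018, limma). PAC1, an α ring gene, had 10.22, 10.06 and 10.15 with estradiol, against 10.35, 10.52 and 10.41 with mock, a change of -0.29 ± 0.08 (adjusted p = 0.00676, limma). RPN11, the deubiquitinase of the lid, had 10.29, 10.35 and 10.28 with estradiol, against 10.07, 10.10 and 9.96 with mock. It was higher in all 3 arrays, by 0.26 ± 0.08 (adjusted p = 0.00891, limma). PAB2, PAG1 and PBB1 were the other genes lower, and RPN2B the other higher.

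The counts in these shoots depended on single choices. With each array centred on its median 1 gene was higher and 7 were lower, beside 21.2% and 29.1% of all probe sets tested. With quantile normalization 1 was higher and 6 were lower, beside 22.2% and 27.8%. Without estradiol-treated replicate 1 the counts were 1 and 3. Without estradiol-treated replicate 3 or without mock-treated replicate 2, 1 gene was higher. Of the partners, NAC53 (0.53 ± 0.09), NAC78 (0.36 ± 0.08) and PA200 (0.75 ± 0.16) were higher, as were 5 of 7 ubiquitin and activating enzyme genes, with 1 lower. The proteasome assembly gene UMP1A was lower, at -0.27 ± 0.09, and 4 of 9 COP9 signalosome genes were lower and 0 higher. Among all probe sets tested in these shoots, 23.8% were higher and 25.5% lower as deposited.

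In roots, 11 of the 40 genes were lower and 1 was higher in the estradiol-treated than in the mock-treated VP line (limma, adjusted p under 0.05). Over all probe sets tested, 28.3% were lower and 15.6% higher. The share of the 40 that was lower is thus near the background, and the median change of -0.09 is near the -0.07 of all probe sets tested. RPT2B stood at 9.11, 8.98 and 9.05 in the estradiol-treated line, against 9.37, 9.34 and 9.42 in the mock-treated line. All treated arrays were lower, at -0.33 ± 0.06 (adjusted p = 8.81e-05, limma). PAD2 had 10.10, 10.01 and 10.06 with estradiol, against 10.48, 10.33 and 10.31 with mock, a change of -0.31 ± 0.06 (adjusted p = 0.00016, limma). RPN1A ran the other way, with 10.11, 10.10 and 10.15 with estradiol, against 9.90, 9.79 and 9.77 with mock. All 3 treated arrays were higher, by 0.30 ± 0.06 (adjusted p = 0.000375, limma).

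The other genes lower with estradiol in roots were PAE2, PAF1, PBC2, PBD2, RPT2A, RPT4B, RPN8B, AT5G53540 and CSN2, with changes between -0.15 and -0.20. RPT2B was the only gene lower with estradiol in both tissues, 1 of the 5 lower in shoots and 1 of the 11 in roots, where 9.65% of all probe sets tested in both tissues were. With each array centred on its median, 2 genes were higher and 5 lower, beside 18.4% and 22.8% of all probe sets tested. With quantile normalization 2 were higher and 8 lower, beside 17.6% and 25.2%. Without estradiol-treated replicate 2, 6 were lower, and without mock-treated replicate 1, 5. NAC53 was lower in these roots, with 10.08, 10.13 and 9.98 with estradiol, against 10.56, 10.51 and 10.46 with mock, a change of -0.45 ± 0.06. DSS1V rose by 0.69 ± 0.06. Of the ubiquitin and activating enzyme genes 3 of 7 were higher and 0 lower, and of the COP9 signalosome genes 0 of 9 were higher and 1 was lower. Over all probe sets tested in these roots, 15.6% were higher and 28.3% lower as deposited. Of the 6 root markers 3 were lower and 0 higher, with array means of 8.80 to 8.86 with estradiol and 9.03 to 9.11 with mock. Of the 4 shoot markers 1 was higher and 2 were lower, with array means of 8.61 to 8.79 with estradiol and 8.21 to 8.48 with mock. The part of these markers was not tested.

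The mock-treated VP line and the sufficient wild type differ without induction. They grew on the same nitrogen supply but differ in genotype and handling. In shoots 7 of the 40 genes were higher and 3 lower in the mock-treated line, against 17.7% and 15.8% of all probe sets tested (limma, adjusted p under 0.05). PBB2, which carries the trypsin-like site of the core, had 9.34, 9.31 and 9.31 in the mock-treated line, against 8.90, 9.08 and 8.89 in the sufficient wild type. The groups did not overlap, at 0.36 ± 0.07 (adjusted p = 0.00108, limma). RPN2B was higher by 0.32 ± 0.08, with 8.48, 8.54 and 8.44 in the mock-treated line, against 8.21, 8.23 and 8.07 in the wild type. CSN2 was lower, with 8.37, 8.36 and 8.07 in the mock-treated line, against 8.51, 8.58 and 8.68 in the wild type, a change of -0.32 ± 0.11 (adjusted p = 0.031, limma). RPT2B was higher here by 0.27 ± 0.09 and RPN11 lower, at -0.21 ± 0.08. These are the directions opposite to those on induction, and the comparisons share the mock-treated arrays.

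Counts in the uninduced comparison moved with single arrays as well. In shoots the higher count was 4 without sufficient wild type replicate 1 or without any 1 of the 3 mock-treated replicates. The lower count was 0 without sufficient wild type replicate 2, without sufficient wild type replicate 3 or without mock-treated replicate 3, and 1 without mock-treated replicate 2. With quantile normalization the shoot counts were 7 higher and 1 lower, beside 17.8% and 16.2% of all probe sets tested. In roots 1 gene was higher and none lower (limma, adjusted p under 0.05), against 12.1% and 6.10% of all probe sets tested, and at an unadjusted p under 0.05 the counts were 2 higher and 4 lower, beside 21.8% and 10.4%. The gene was PAD2, with 10.48, 10.33 and 10.31 in the mock-treated line, against 10.23, 10.13 and 9.99 in the sufficient wild type, a difference of 0.25 ± 0.06 (adjusted p = 0.00473, limma). With each array centred on its median 1 gene was higher and 6 lower in roots, beside 6.39% and 10.5% of all probe sets tested. With quantile normalization 1 was higher and 2 were lower, beside 8.65% and 8.15%. Without sufficient wild type replicate 1, 2 were higher and 1 lower, and 3 were lower without mock-treated replicate 1 and 1 without mock-treated replicate 2. All 4 shoot markers were lower in these roots, with array means of 8.21 to 8.48 in the mock-treated line and 8.98 to 9.10 in the sufficient wild type. Of the 6 root markers 2 were higher and 0 lower, with array means of 9.03 to 9.11 in the mock-treated line and 8.79 to 8.99 in the wild type. In shoots none of the 4 shoot markers and none of the 5 root markers tested passed the threshold, and the part of the markers was not tested.

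**Figure D5:**
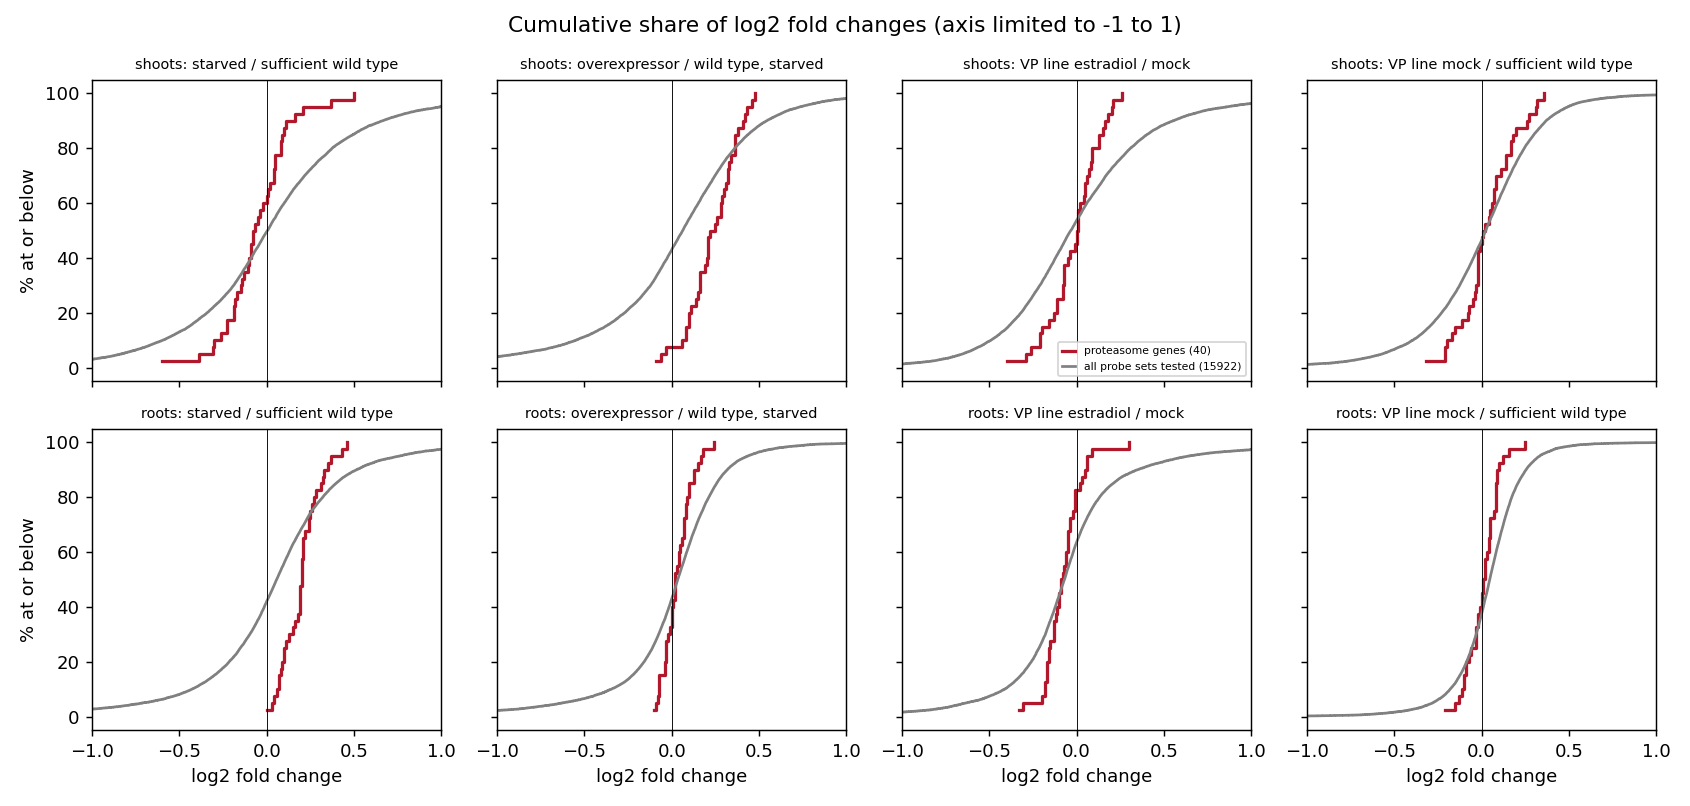
Cumulative share (%) of log2 fold changes of the 40 proteasome genes (red) and of all 15922 probe sets tested (grey) in 4 comparisons of shoots (top) and roots (bottom), with the axis limited to -1 to 1. The red curve lies right of the grey one through most of its range for the overexpressor in shoots (medians 0.24 and 0.06) and for starvation in roots (medians 0.20 and 0.06), and is steeper than the grey one in every panel.

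Across the arrays of a tissue the proteasome genes varied together, in roots and less so in shoots. These correlations are descriptions over 15 arrays that share groups and normalization, and the tissues were not tested against each other. The median correlation between pairs of the 40 genes was 0.70 in roots and 0.33 in shoots, and 97.2% of pairs in roots and 78.1% in shoots were positive. Each gene's correlation with the mean of the other subunit genes had a median of 0.85 in roots (0.19 to 0.97) and of 0.62 in shoots (-0.19 to 0.86). For genes outside the list the median was 0.25 in roots and 0.10 in shoots. RPT2A and PBA1 (0.97 each) and RPT3 (0.96) followed the rest most closely in roots. RPN1A followed it least among the subunit genes there, at 0.19, and PAB2 came next at 0.38. In shoots the subunit genes that followed least were PAC1 (-0.14), PAB2 (0.01), RPT2B (0.02) and RPN5B (0.08), and PAF2 (0.86), PAD2 (0.85) and PBD1 (0.85) followed most closely.

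Genes outside the lists were also correlated with the mean of the standardized levels of the 40 genes. The most alike were AT5G60980 (0.948), MEE49 (0.940), AT3G21480 (0.935), YAO (0.931) and EMB2217 (0.929) in shoots. In roots they were AT1G01630 (0.988), KCS9 (0.986), PDH-E1 BETA (0.983), NPC6 (0.983) and ENODL8 (0.981). Each value is a correlation over the 15 arrays of the tissue, chosen as the highest among all genes.

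The authors' deposited table of their own tests, which the authors adjusted by the Benjamini-Hochberg method, called fewer of the 40 genes. On starvation the authors' deposited table called 2 higher and 1 lower in shoots, beside 6.76% and 5.85% of all 22746 probe sets, and 5 higher and 0 lower in roots, beside 6.03% and 5.11%. For the overexpressor the authors' deposited table called 1 higher and 0 lower in shoots, beside 4.90% and 4.47% of all probe sets, and none in roots, beside 1.75% and 2.60%. On AtNIGT1.2-VP induction the authors' deposited table called 0 higher and 1 lower in shoots, beside 6.08% and 6.01%, and 0 higher and 3 lower in roots, beside 6.80% and 8.13%.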

How the data were processed

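The deposited values are log2 expression levels. Per the file headers the authors used RMA, whereas MAS5 is the method named by the submitters' processing notes, and no version of either is stated there. The deposited tables also hold the authors' own p-values, of which only counts are given. Members are the single-locus probe sets whose description contains the word proteasome, the highest-mean one per locus; all 40 loci matched the reference table, which gave their symbols. Probe sets of several loci named no gene. The files name no genome build, so no coordinates or sequences are printed.

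Probe sets whose mean lay at or above the 30th percentile (15922 per tissue) were tested. Limma 3.58.1 in R 4.3.3 was fitted per tissue to 15 arrays in 5 groups with an intensity trend, with Benjamini-Hochberg adjustment over all probe sets tested, a threshold of 0.05 and two-sided p-values. An exact permutation test of 3 against 3 arrays cannot go below 0.10, so none was used. Errors are the fit's standard errors, or SDs where so named. The number of arrays limits the precision. The fit was checked on simulated data.

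Members, lists and tests were chosen with earlier results of these data known. The genes named in full are, per comparison, the 3 with the largest change among those past the threshold whose arrays did not overlap, both members of any pair of paralogs called in opposite directions, and RPN10, PA200, UMP1A, UMP1B and PTRE1 where they are members, which none is. The rule also named the highest and lowest gene of each subcomplex by level, which is not given because probes of different genes are not comparable. Other genes were named after their values were seen. Same-numbered arrays did not deviate together (correlations -0.46 to 0.18 in shoots, -0.14 to 0.16 in roots), so arrays were not paired.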

Additional observations from a re-analysis of the deposited data

Results flagged for a closer look

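In 8 genes every starved wild type array lay below every sufficient one in shoots and above every sufficient one in roots, as in 7.90% of all probe sets tested in both tissues. The difference between the tissues was not tested, since the tables were normalized separately. Of the ATPase genes, RPT2B changed by -0.60 in shoots and 0.20 in roots on the log2 scale, RPT4A by -0.23 and 0.32, and RPT4B by -0.05 and 0.22. Of the α ring genes, PAG1 changed by -0.19 in shoots and 0.19 in roots, PAD2 by -0.15 and 0.33, and PAB2 by -0.08 and 0.11. Of the lid genes, RPN8A changed by -0.26 in shoots and 0.13 in roots, and RPN5B by -0.30 and 0.18. RPT2B, RPT4A, PAG1 and RPN8A passed the threshold in both tissues (limma). PAD2 and RPT4B passed it only in roots, RPN5B only in shoots, and PAB2 in neither.

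PAD2 and AT5G53540 showed the opposite order in other comparisons, higher in shoots and lower in roots, again with no test of the difference. The share of all probe sets tested with this order was not counted, so whether it is particular to these genes is not known. In the overexpressor PAD2 was higher in all 3 shoot arrays, by 0.43, and lower in all 3 root arrays, with a change of -0.10 that missed the threshold. With estradiol AT5G53540 was higher in all 3 shoot arrays of the VP line, with a change of 0.15 that missed the threshold, and lower in all 3 root arrays, at -0.16.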

How the results depend on the processing

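The directions of the 24 results on named genes held in all of 360 alternative values, 329 of which stayed past the threshold and 31 of which did not. The 31 concern PBD1, PBD2, CSN2 and the 3 genes higher in overexpressor roots. Counts of the 40 genes moved by more than 1.5 times as follows; the cause was not tested. With arrays centred on the median, 17 genes were higher in starved roots (28 as deposited), 1 higher in shoots (2) and 2 higher (1) and 5 lower (11) in roots on AtNIGT1.2-VP induction, and 6 lower in mock-treated VP roots (0). With quantile normalization the counts were 1 higher in shoots and 2 higher in roots on induction, and 1 lower in shoots (3) and 2 lower in roots in the uninduced comparison. Without the filter, or with the replicate block, 1 gene was higher in induced shoots. Leaving out 1 array at a time, starvation gave 2 to 3 higher and 4 to 10 lower in shoots, and 24 to 30 higher and 0 lower in roots. Overexpression gave 18 to 27 higher in shoots and 0 to 3 in roots, with 0 lower in both. AtNIGT1.2-VP induction gave 1 to 2 higher and 3 to 5 lower in shoots, and 1 higher and 5 to 11 lower in roots. The uninduced line gave 4 to 8 higher and 0 to 2 lower in shoots, and 1 to 2 higher and 0 to 3 lower in roots. With the replicate number as a replicate block no other count moved by more than 1.5 times, and the numbers do not pair the arrays. The series matrix holds the same values to within 5e-09, and each of the 40 genes has 1 single-locus probe set, so those alternatives changed nothing.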
